A study of Mus musculus with 18 samples.

Results

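The metallothionein and glucocorticoid response genes described here are Mt1, Mt2, Sult1a1, Arrdc2, Fkbp5, Sgk1, Tsc22d3 and Zbtb16. They were taken by symbol: every probe set that the array's annotation pairs with exactly 1 of these symbols was used, which gave 16 probe sets of 8 genes, of 34945 probe sets with 1 symbol for 18193 genes. RNA from whole cerebellum of C57BL/6 mice was measured on Affymetrix arrays, 1 array per sample and 3 per group. The groups were homozygous MPI 118Q/118Q knock-in mice, their wild-type littermates, homozygous Sca6 CtmKO/CtmKO mice, their wild-type littermates, homozygous MPI 11Q/11Q knock-in mice and their wild-type littermates, with the mutants called 118Q knock-ins, Ctm knockouts and 11Q knock-ins below. The series was made to study spinocerebellar ataxia type 6, a disease of a glutamine repeat in the calcium channel gene Cacna1a, and gives an age of 6 weeks for the 118Q and Ctm mutants. The ages of the other mice, their sex, the time of day and the handling before tissue was taken are not given in the sources used here, nor is the promoter or cell type that governs each altered allele.

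Metallothioneins are small proteins rich in cysteine that bind zinc and copper. In mammals metals switch on their genes through the zinc-sensing factor MTF1, and glucocorticoids switch on Mt1 and Mt2 as well. Glucocorticoids, corticosterone in mice, bind the receptor Nr3c1, which leaves a complex of chaperones, enters the nucleus and binds glucocorticoid response elements (GRE) near target genes. In the brain these targets are known as a readout of stress hormone and of its daily rhythm, in glia and blood vessels as well as in neurons. Among the other 6 genes, Fkbp5 encodes a co-chaperone that holds the receptor back, Sgk1 a kinase, Tsc22d3 the anti-inflammatory leucine zipper protein GILZ, Zbtb16 the zinc finger repressor PLZF, Arrdc2 an arrestin-domain adaptor and Sult1a1 a sulfotransferase of phenols.

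The promoter sequence shows which of these switches has a matching motif close to the start. RefSeq promoter windows (GRCm38.p6) were at hand for 7 of the 8 genes, 14 windows in all, and the 250 bases before each start were searched on both strands. The metal response element was written as TGCACNC or TGCGCNC, the full GRE as AGAACA and TGTTCT with 3 bases of any kind between them, a single arm of it as AGAACA and the cyclic AMP element as TGACGTCA. A match is a description of letters, not a site shown to be used. Mt2 and Mt1 are shown for the metal element and Sgk1 for the full GRE, with matches in capitals. The Mt2 window is chr8:94172368-94172617, the Mt1 stretch of 30 bases is chr8:94179055-94179084, inside the annotated Mt1 gene because the start used lies downstream of the gene's first base, and the Sgk1 window is chr10:21993640-21993889, before 1 of the 6 starts listed for Sgk1. All are on the plus strand.
Mt2: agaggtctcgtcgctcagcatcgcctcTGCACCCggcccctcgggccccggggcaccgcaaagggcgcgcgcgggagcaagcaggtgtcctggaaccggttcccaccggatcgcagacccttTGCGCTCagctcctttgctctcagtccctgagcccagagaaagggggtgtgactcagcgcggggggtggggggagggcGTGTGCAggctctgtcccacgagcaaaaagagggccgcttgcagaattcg
Mt1: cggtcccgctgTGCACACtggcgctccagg
Sgk1: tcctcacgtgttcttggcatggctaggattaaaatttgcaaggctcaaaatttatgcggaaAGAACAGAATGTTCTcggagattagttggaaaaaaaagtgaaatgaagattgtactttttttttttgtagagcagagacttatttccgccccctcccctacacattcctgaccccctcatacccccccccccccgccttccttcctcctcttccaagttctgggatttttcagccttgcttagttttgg

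The Mt2 window held 3 metal elements, 2 on the plus strand and 1 on the minus strand, and 1.26% of 32851 windows held at least as many. The Mt1 window held 1, and 21.4% of windows held at least 1. The Mt1 window searched was chr8:94178839-94179088, and the annotated gene begins at 94178883. Most of the window thus lies inside the gene, and most of the sequence before the gene's first base was not searched. The counts of Mt1 and Mt2 therefore cover unlike stretches. With the 50 bases after the start included, Mt2 had 4 and Mt1 had 3, and at least as many were found in 0.517% and 1.97% of windows. The full GRE stood in the printed Sgk1 window and in 3 of 32851 windows in all (0.00913%). Each of its arms holds the shorter motif, which stood in 16.1% of windows and also occurred in windows of Sult1a1 and Tsc22d3. No window of the 7 genes held the cyclic AMP element, which 1.55% of windows hold. Mt1, Mt2 and Arrdc2 lie on chromosome 8, as Cacna1a does: Mt1 and Mt2 are neighbours with 0 protein-coding genes between them, 89 such genes lie between Mt1 and Cacna1a, and 133 between Arrdc2 and Cacna1a.

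Array medians were 2.38 to 2.55 on the log2 scale and correlations between arrays 0.973 to 0.995. Mean levels of 7 granule cell and 7 Purkinje cell markers were 9.72 to 10.02 and 8.93 to 10.09, so the defining markers of cerebellum were present. Cacna1a passed the test on none of its 4 probe sets in any line by limma. On the brightest, it spanned 5.52 to 5.79 in 118Q knock-in and 5.51 to 6.25 in 118Q wild-type arrays, 5.87 to 6.21 in Ctm knockout and 6.02 to 6.14 in Ctm wild-type arrays, and 6.18 to 6.30 in 11Q knock-in and 6.24 to 6.43 in 11Q wild-type arrays. The mean of 11 choroid plexus markers, from the tissue that lines the ventricles, spanned 3.22 to 5.69 in 118Q knock-in and 2.89 to 6.49 in 118Q wild-type arrays, 2.73 to 5.90 in Ctm knockout and 3.15 to 6.23 in Ctm wild-type arrays, and 2.60 to 5.46 in 11Q knock-in and 5.64 to 6.06 in 11Q wild-type arrays.

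In the 118Q line all 8 genes averaged higher in knock-in than in wild-type cerebellum, by 0.26 to 0.94 on the log2 scale, and Mt1, Mt2, Sult1a1 and Arrdc2 were higher in each of the 3 knock-in arrays than in each of the 3 wild-type arrays. None of these differences passed the test. The 8 genes were chosen with earlier results of these arrays known. Their shared direction describes the arrays and is no independent evidence of a rise. In the Ctm line 3 of 8 genes averaged higher in the knockout, and in the 11Q line 4 of 8 in the knock-in, where Arrdc2 and Sgk1 lay below all wild types. Each value is the level on a gene's brightest probe set, the one with the highest mean over all 18 arrays, unless another is named. Tests are limma's, adjusted by Benjamini-Hochberg over all 34945 probe sets, with a threshold of 0.05. RNA was taken from whole cerebellum, so more or fewer cells of a type and more or less RNA per cell cannot be told apart.

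By limma, 0 of the 16 probe sets passed in any of the 3 lines. Over all probe sets 0.558% passed in the 118Q line, 0.916% in the Ctm line and 0% in the 11Q line. An unadjusted p under 0.05 was reached by 8 of 16 in the 118Q line (14.1% of all probe sets), 0 of 16 in the Ctm line (11.0%) and 3 of 16 in the 11Q line (5.24%). In the 118Q line 6 of the 16 lay above all wild types (10.4% of all probe sets) and 0 below (5.88%). No probe set was separated in either direction in the Ctm line (7.01% above and 12.4% below), and in the 11Q line 0 lay above (4.28%) and 3 below (5.61%). The median of the 8 genes was 0.67 in the 118Q line against 0.034 over all probe sets, -0.044 against -0.041 in the Ctm line, and 0.049 against -0.011 in the 11Q line. A log2 change above 0 was found for 57.4%, 40.1% and 47.3% of all probe sets in the 118Q, Ctm and 11Q lines. Since the genes were chosen with earlier results known, a count above these shares is no independent evidence about them.

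With wild types of the 118Q and 11Q lines together (6 arrays) as the control, 3 of 16 probe sets were higher in 118Q knock-ins by limma: Mt1 1422557_s_at at 0.66 (adjusted p = 0.0286), Fkbp5 1448231_at at 0.58 (adjusted p = 0.0303) and Mt1 1451612_at at 0.89 (adjusted p = 0.0403). With that control 3.67% of all probe sets were called higher. Against the same 6 arrays 0 of 16 passed in the Ctm knockout, where 9.89% of all probe sets passed, and the median of the 8 genes was -0.34.

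**Figure D1:**
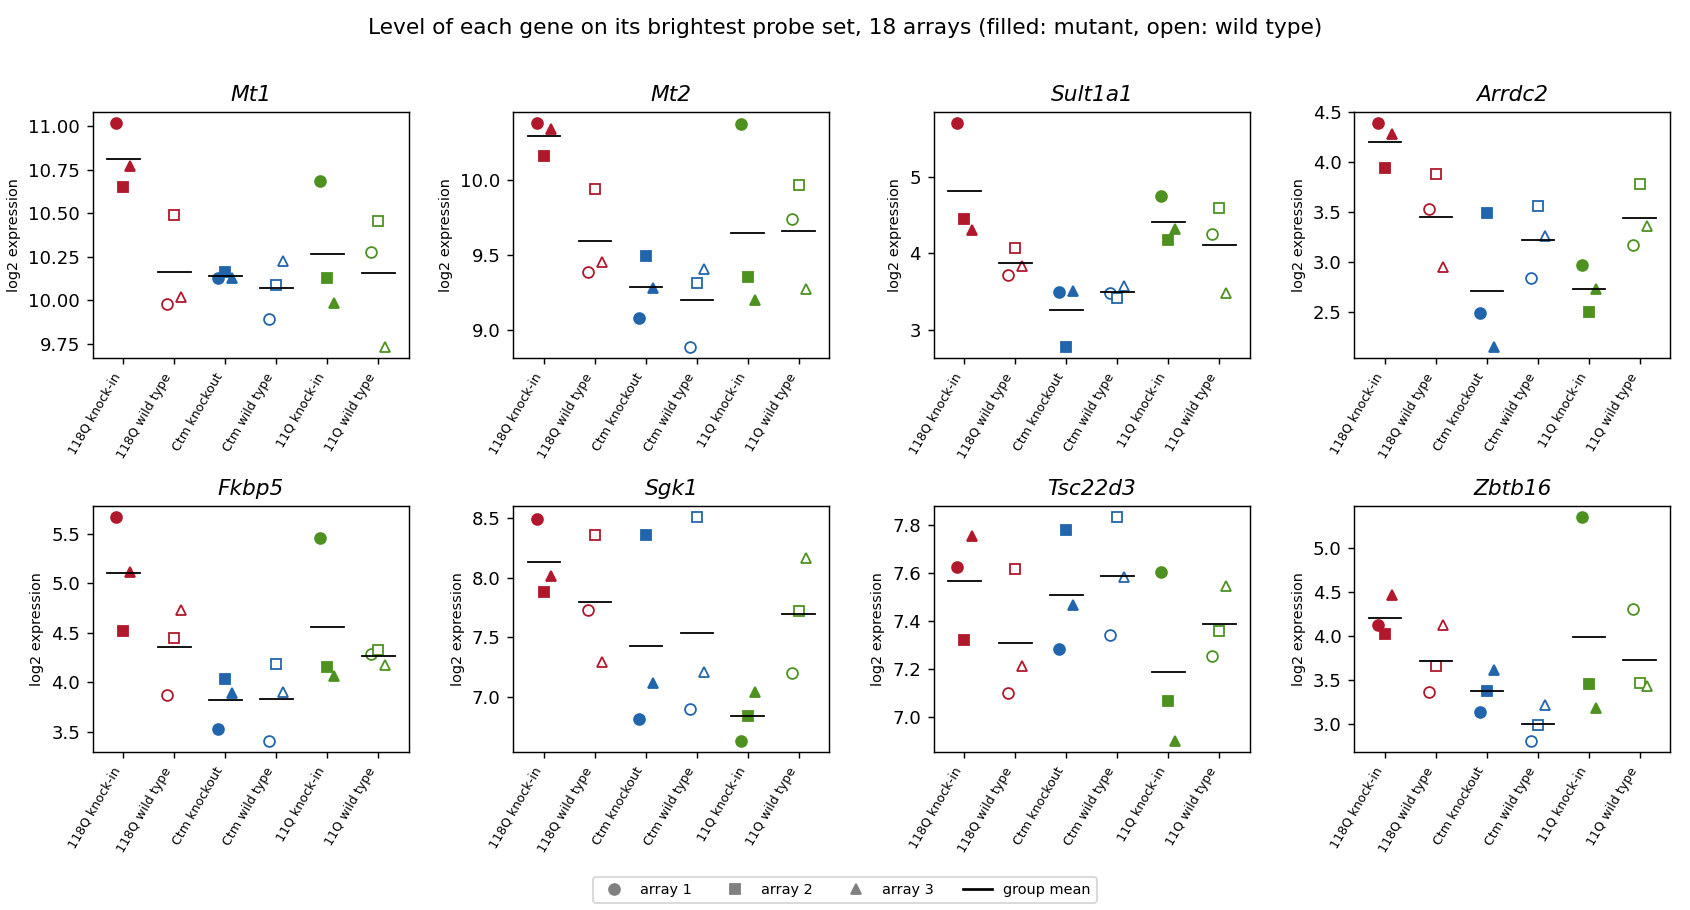
Log2 expression of each gene on its brightest probe set in 18 arrays, with mutants (filled) left of their wild types (open) in each line, symbols for array numbers and bars for group means (n = 3). The 118Q knock-in arrays lie above all 118Q wild types for Mt1, Mt2, Sult1a1 and Arrdc2, and 11Q knock-in array 1 lies far above its group for Mt2, Fkbp5 and Zbtb16.

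Mt1 encodes a metallothionein made in most tissues of the body. It read 11.02, 10.65 and 10.77 in 118Q knock-in arrays, against 9.98, 10.49 and 10.02 in 118Q wild-type arrays. The knock-in arrays were the highest of the 6, and wild-type array 2 came closest to them. The log2 change was 0.65 with a 95% interval of 0.24 to 1.06 (SE 0.19, adjusted p = 0.123 by limma), a 1.57-fold difference. In the Ctm line Mt1 read 10.13, 10.16 and 10.13 in knockout arrays, against 9.89, 10.09 and 10.22 in wild-type arrays. The knockout values lay inside the wild-type range, and the change was 0.071 (SE 0.19, adjusted p = 0.947 by limma). It read 10.69, 10.13 and 9.98 in 11Q knock-in arrays, against 10.28, 10.45 and 9.73 in 11Q wild-type arrays, a change of 0.11 (SE 0.19, adjusted p = 0.946 by limma). The knock-in arrays of that line spread from the highest to near the lowest of the 6. Over the 6 groups the 118Q knock-in mean of 10.81 ± 0.19 (SD, n = 3) stood 0.55 above the next, 11Q knock-in at 10.27 ± 0.37, more than the larger SD, and no other neighbours in the order differed by more than their SD.

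The other Mt1 probe set, 1451612_at, is dim and did not follow the bright one in every line. It read 3.57, 3.79 and 3.87 in 118Q knock-in arrays, against 3.12, 3.39 and 2.43 in 118Q wild-type arrays, with no overlap and a change of 0.76 (SE 0.28, adjusted p = 0.217 by limma). In the 11Q line the order was the other way, at 2.04, 2.16 and 1.66 in knock-in arrays against 2.21, 3.01 and 2.98 in wild-type arrays, a change of -0.78 (SE 0.28, adjusted p = 0.909 by limma). The Ctm knockout arrays at 2.29, 2.45 and 2.27 overlapped the wild types at 1.67, 2.93 and 2.67. Both probe sets of Mt1 thus averaged higher in 118Q knock-in mice, while in 11Q knock-in mice they differed in sign.

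Mt2 is the paired gene next to Mt1. It read 10.37, 10.16 and 10.34 in 118Q knock-in arrays, against 9.39, 9.94 and 9.46 in 118Q wild-type arrays. The groups did not overlap, and the change was 0.70 (SE 0.25, adjusted p = 0.196 by limma). Ctm knockout arrays read 9.09, 9.49 and 9.28, against 8.89, 9.31 and 9.41 in Ctm wild types. The 11Q knock-in arrays read 10.37, 9.35 and 9.20, against 9.74, 9.96 and 9.27 in 11Q wild types. Groups overlapped in both lines, with changes of 0.084 in the Ctm line and -0.015 in the 11Q line (SE 0.25 each). In the 11Q knock-in group 1 array of 3 was as high as the 118Q knock-in arrays. The 118Q knock-in mean of 10.29 ± 0.12 (SD, n = 3) lay 0.63 above the next group, 11Q wild type at 9.66 ± 0.35, and 118Q wild type at 9.59 ± 0.30 lay 0.31 above Ctm knockout at 9.29 ± 0.20, while the other neighbours were within their SD.

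Sult1a1 had the highest change of the 8 genes in the 118Q line, 0.94 (SE 0.31, adjusted p = 0.160 by limma). Its values were 5.70, 4.44 and 4.31 in knock-in arrays, against 3.71, 4.07 and 3.84 in wild-type arrays. The groups did not overlap, but array 1 stood more than 1 log2 unit above the other knock-in arrays, and without it the change was 0.50 (adjusted p = 0.356 by limma). Sult1a1 read 3.50, 2.78 and 3.51 in Ctm knockout arrays, against 3.49, 3.42 and 3.58 in Ctm wild types. In the 11Q line it read 4.75, 4.18 and 4.32 in knock-in arrays, against 4.26, 4.59 and 3.48 in wild types. Groups overlapped in both lines, with changes of -0.23 and 0.31 (SE 0.31 each). The 118Q knock-in mean of 4.82 ± 0.77 (SD, n = 3) did not stand beyond its SD from 11Q knock-in at 4.41 ± 0.30, and 118Q wild type at 3.88 ± 0.18 lay 0.38 above Ctm wild type at 3.49 ± 0.082, while the other neighbours were within their SD.

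Arrdc2 had the largest differences from the 118Q line to the other lines among the brightest probe sets. It read 4.39, 3.94 and 4.28 in 118Q knock-in arrays, against 3.53, 3.88 and 2.95 in 118Q wild types, and 2.97, 2.50 and 2.73 in 11Q knock-in arrays, against 3.17, 3.79 and 3.36 in 11Q wild types. The 118Q knock-ins were all above and the 11Q knock-ins all below their wild types, by 0.75 (SE 0.29, adjusted p = 0.235 by limma) and -0.71 (SE 0.29, adjusted p = 0.909 by limma). Ctm knockout arrays read 2.49, 3.49 and 2.15, against 2.84, 3.56 and 3.26 in wild types, overlapping, with a change of -0.51 (SE 0.29, adjusted p = 0.556 by limma), which was -0.90 without knockout array 2 and -0.23 without knockout array 3. Without 118Q wild-type array 3, the lowest of its group, the 118Q change was 0.50 (adjusted p = 0.614 by limma). The 118Q knock-in mean of 4.20 ± 0.23 (SD, n = 3) lay 0.75 above the next group, and Ctm wild type at 3.22 ± 0.36 lay 0.49 above the lowest pair, 11Q knock-in and Ctm knockout.

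Fkbp5, the receptor's co-chaperone, read 5.67, 4.52 and 5.11 in 118Q knock-in arrays, against 3.87, 4.45 and 4.73 in 118Q wild types. The groups overlapped by 1 array and the change was 0.75 (SE 0.33, adjusted p = 0.306 by limma), or 0.46 without knock-in array 1. Its second probe set, 1448231_at, read 3.16, 2.35 and 2.93 in knock-in arrays, against 2.29, 2.34 and 2.29 in wild types, with a change of 0.51 (SE 0.18, adjusted p = 0.180 by limma). These groups did not overlap, though knock-in array 2 lay just above the wild types. The third and dimmest probe set, 1447736_at, differed by 0.12 (SE 0.11). In the Ctm line Fkbp5 read 3.53, 4.04 and 3.89 in knockouts, against 3.41, 4.19 and 3.90 in wild types, a change of -0.011 (SE 0.33). The 11Q knock-ins read 5.45, 4.16 and 4.07, against 4.28, 4.32 and 4.18 in wild types, where array 1 alone carried the positive change of 0.30 (SE 0.33), which was -0.15 without it. Group means ran from 5.10 ± 0.57 in 118Q knock-in to 3.82 ± 0.26 in Ctm knockout (SD, n = 3), and only 11Q wild type at 4.26 ± 0.075 and Ctm wild type at 3.83 ± 0.39 stood farther apart, as neighbours, than the larger SD.

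Sgk1 varied widely between arrays of the same group. It read 8.49, 7.88 and 8.02 in 118Q knock-in arrays, against 7.73, 8.36 and 7.29 in 118Q wild types. The groups overlapped and the change of 0.34 (SE 0.40, adjusted p = 0.778 by limma) ranged from 0.085 to 0.62 as single arrays were left out, the lowest without wild-type array 3 and the highest without wild-type array 2. Ctm knockout arrays read 6.81, 8.36 and 7.12, against 6.90, 8.51 and 7.21 in Ctm wild types, a change of -0.11 (SE 0.40). Same-numbered knockout and wild-type arrays of the Ctm line lay close to each other. The 11Q knock-ins read 6.63, 6.83 and 7.04, all below the 11Q wild types at 7.20, 7.72 and 8.17, with a change of -0.87 (SE 0.40, adjusted p = 0.909 by limma). No neighbouring pair in the order of the 6 group means, from 8.13 ± 0.32 in 118Q knock-in to 6.83 ± 0.21 in 11Q knock-in (SD, n = 3), differed by more than the larger SD.

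Tsc22d3 read 7.62, 7.32 and 7.76 in 118Q knock-in arrays, against 7.10, 7.61 and 7.21 in 118Q wild types, overlapping, with a change of 0.26 (SE 0.19, adjusted p = 0.598 by limma). It was 0.15 without wild-type array 1, 0.41 without wild-type array 2 and 0.16 without knock-in array 3. Its second probe set, 1425281_a_at, differed by 0.37 (SE 0.17, adjusted p = 0.323 by limma), and the dimmer 1425557_x_at and 1444365_at by 0.11 and -0.018. This was the gene of the 8 whose 118Q knock-in mean was not the highest of the 6 groups: at 7.57 ± 0.22 it stood second to Ctm wild type at 7.59 ± 0.25 (SD, n = 3). Tsc22d3 read 7.28, 7.78 and 7.47 in Ctm knockouts, against 7.34, 7.83 and 7.58 in Ctm wild types. The 11Q values were 7.60, 7.06 and 6.90 in knock-ins, against 7.26, 7.36 and 7.54 in wild types. Both lines overlapped, with changes of -0.078 and -0.20 (SE 0.19 each), the 11Q one -0.40 without knock-in array 1 and -0.052 without knock-in array 3, and no neighbouring group means differed by more than their SD.

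Zbtb16 read 4.12, 4.02 and 4.47 in 118Q knock-in arrays, against 3.36, 3.66 and 4.13 in 118Q wild types, overlapping by 1 wild-type array, with a change of 0.49 (SE 0.39, adjusted p = 0.636 by limma). It was 0.31 without wild-type array 1. Ctm knockouts read 3.14, 3.38 and 3.61, against 2.81, 2.99 and 3.22 in wild types, overlapping, with a change of 0.37 (SE 0.39). In the 11Q line array 1 of the knock-ins, at 5.35, was the highest of all 18, and the others read 3.45 and 3.18, against 4.30, 3.47 and 3.43 in wild types. The 11Q change was 0.26 (SE 0.39) with that array and -0.42 without it. Of its other probe sets, 1419874_x_at followed with 0.16, 0.37 and 0.11 in the 118Q, Ctm and 11Q lines, and the dim 1427638_at with 0.016, 0.0060 and -0.047. Group means ran from 4.20 ± 0.24 in 118Q knock-in to 3.00 ± 0.21 in Ctm wild type (SD, n = 3), where Ctm knockout at 3.38 ± 0.24 stood 0.37 above Ctm wild type, and the other neighbours were within their SD.

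**Figure D2:**
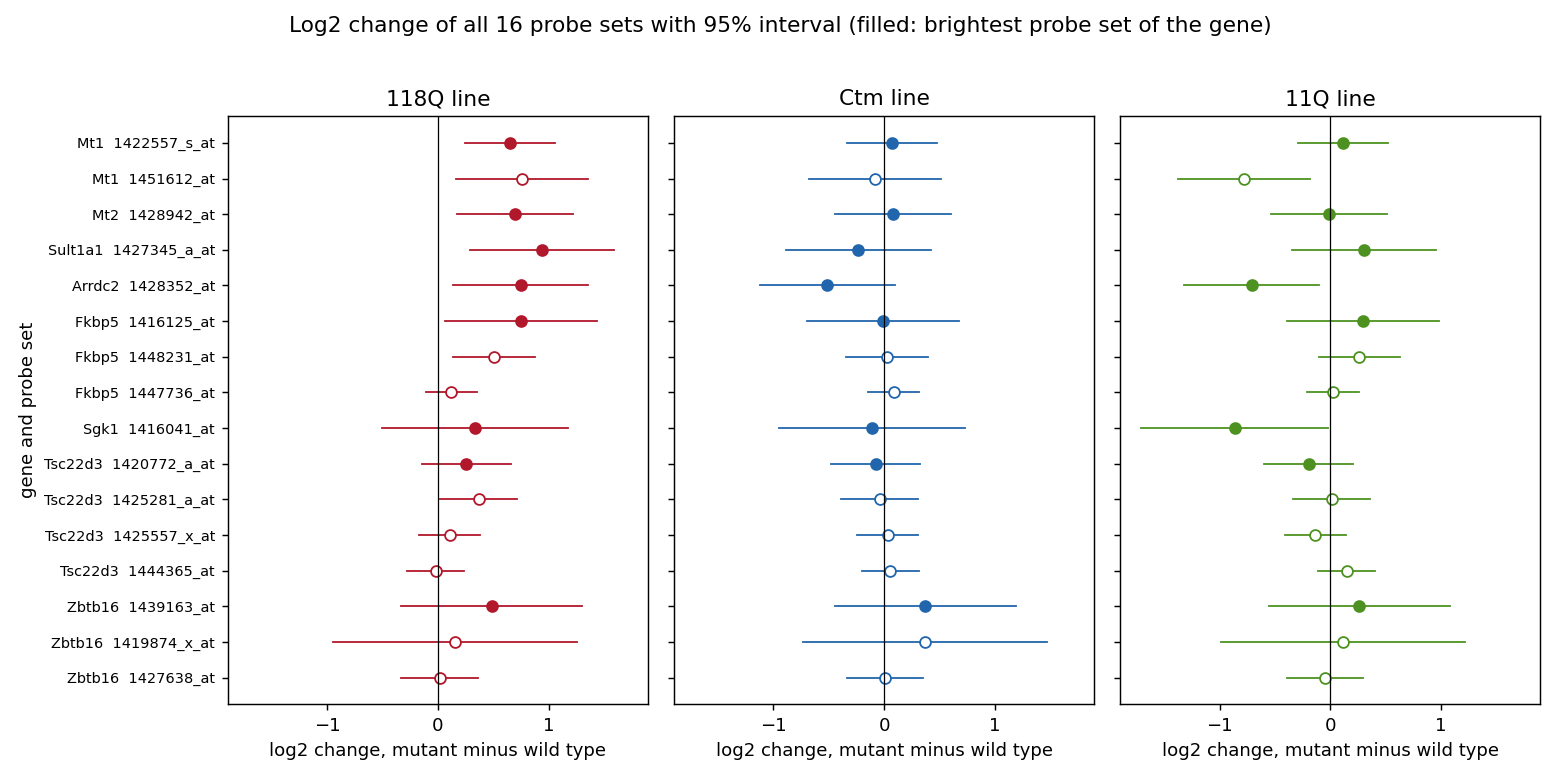
Log2 change, mutant minus wild type, of all 16 probe sets in the 118Q, Ctm and 11Q lines, with 95% intervals of limma's model (filled: brightest probe set of the gene). In the 118Q line 15 of 16 points lie above 0, and in the 11Q line Mt1 1451612_at, Arrdc2 and Sgk1 lie lowest.

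The differences between lines were tested in the same model. By limma 0 of 16 probe sets passed in any of the 3 differences, while over all probe sets 1.63% passed for 118Q minus Ctm, 0% for 118Q minus 11Q and 0% for Ctm minus 11Q. An unadjusted p under 0.05 was reached by 4, 3 and 0 of the 16 in these differences, against 16.5%, 8.98% and 7.91% of all probe sets. For 118Q minus Ctm, Arrdc2 differed by 1.26 (SE 0.41, adjusted p = 0.117 by limma) and Sult1a1 by 1.17 (SE 0.44, adjusted p = 0.175 by limma). For 118Q minus 11Q, the dim Mt1 probe set differed by 1.54 (SE 0.40, adjusted p = 0.315 by limma), Arrdc2 by 1.46 (SE 0.41, adjusted p = 0.330 by limma) and Sgk1 by 1.20 (SE 0.57, adjusted p = 0.553 by limma).

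The levels of most of the 8 genes varied together from array to array, and the highest correlations were those of Mt1, Mt2 and Fkbp5 with each other, of Fkbp5 and Mt2 with Zbtb16, and of Arrdc2 with Sgk1. Of the 28 pairs of genes, 26 had a positive Pearson's r over the 18 arrays, with a median of 0.568. By two-sided permutation tests with 100000 resamples, adjusted by Benjamini-Hochberg over the 28 pairs, 15 passed by Pearson's r, 16 by Spearman's rho and 15 by both. Since the genes were chosen with earlier results of these arrays known, these p-values describe the arrays and are no independent evidence that the genes belong together. The share of other gene pairs that would pass was not computed, so this count has no background beside it. After each group's mean was subtracted, the median r was 0.531, with 25 pairs positive. The 95th percentile of such r over 9096 genes with brighter probe sets ran from 0.424 for Zbtb16 to 0.592 for Sult1a1. The median of the 28 pairs lay inside that span. Within the 6 arrays of 1 line the median r was 0.742 in the 118Q line, 0.448 in the Ctm line and 0.534 in the 11Q line.

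Mt1 and Mt2 were the closest pair, with r = 0.925 and rho = 0.889 over 18 arrays (adjusted permutation p = 0.00028 for each). Their r was 0.897 without the 2 arrays farthest from the median of Mt1, 0.922 after group means were subtracted, and 0.986, 0.844 and 0.937 within the 118Q, Ctm and 11Q lines (exact p = 0.00139, 0.0319 and 0.00833, where the smallest possible with 720 orders is 0.00139). With group means subtracted, Mt2 had the highest r with Mt1 among 9096 genes with brighter probe sets, Mt1 itself left aside. For Sult1a1 the closest of the other genes, Mt1, lay at the 98.0th percentile. Mt2 and Fkbp5 followed with r = 0.881 and rho = 0.839 (adjusted permutation p = 0.00028 and 0.0007), Fkbp5 and Zbtb16 with r = 0.827 and rho = 0.810, and Mt2 and Zbtb16 with r = 0.803 and rho = 0.804. Without the 2 arrays farthest from the median of the first gene, these r were 0.822, 0.820 and 0.763. Sult1a1 went with Mt1, Mt2 and Fkbp5 at r = 0.758, 0.741 and 0.763, values that within the Ctm line were -0.174, -0.503 and -0.377.

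Arrdc2 and Sgk1 had r = 0.797 and rho = 0.804 (adjusted permutation p = 0.000728 and 0.000784), 0.789 without the 2 arrays farthest from the median of Arrdc2, and 0.768 after group means were subtracted. Within the 118Q, Ctm and 11Q lines it was 0.860, 0.783 and 0.729 (exact p = 0.0292, 0.0847 and 0.104). Sgk1 and Tsc22d3 had r = 0.594 and rho = 0.620 (adjusted permutation p = 0.0217 and 0.0148), and 0.488 without the 2 arrays farthest from the median of Sgk1. Arrdc2 also passed by both coefficients with Mt2 (r = 0.691, rho = 0.703), Mt1 (r = 0.625, rho = 0.550) and Fkbp5 (r = 0.553, rho = 0.593), at adjusted permutation p of 0.00459 to 0.0313 for r and 0.00636 to 0.035 for rho. Without the 2 arrays farthest from the median of the first gene these r were 0.776 for Mt2, 0.373 for Mt1 and 0.385 for Fkbp5. With Tsc22d3, Arrdc2 passed by Spearman alone (r = 0.493, rho = 0.552). Sgk1 passed with none of Mt1, Mt2, Sult1a1, Fkbp5 and Zbtb16, and its r was 0.264 with Mt1, 0.024 with Sult1a1 and -0.084 with Zbtb16. Fkbp5 and Tsc22d3 had r = 0.343 over the levels and 0.764 after group means were subtracted, and Tsc22d3 and Sult1a1 had the lowest r of all pairs, -0.118.

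**Figure D3:**
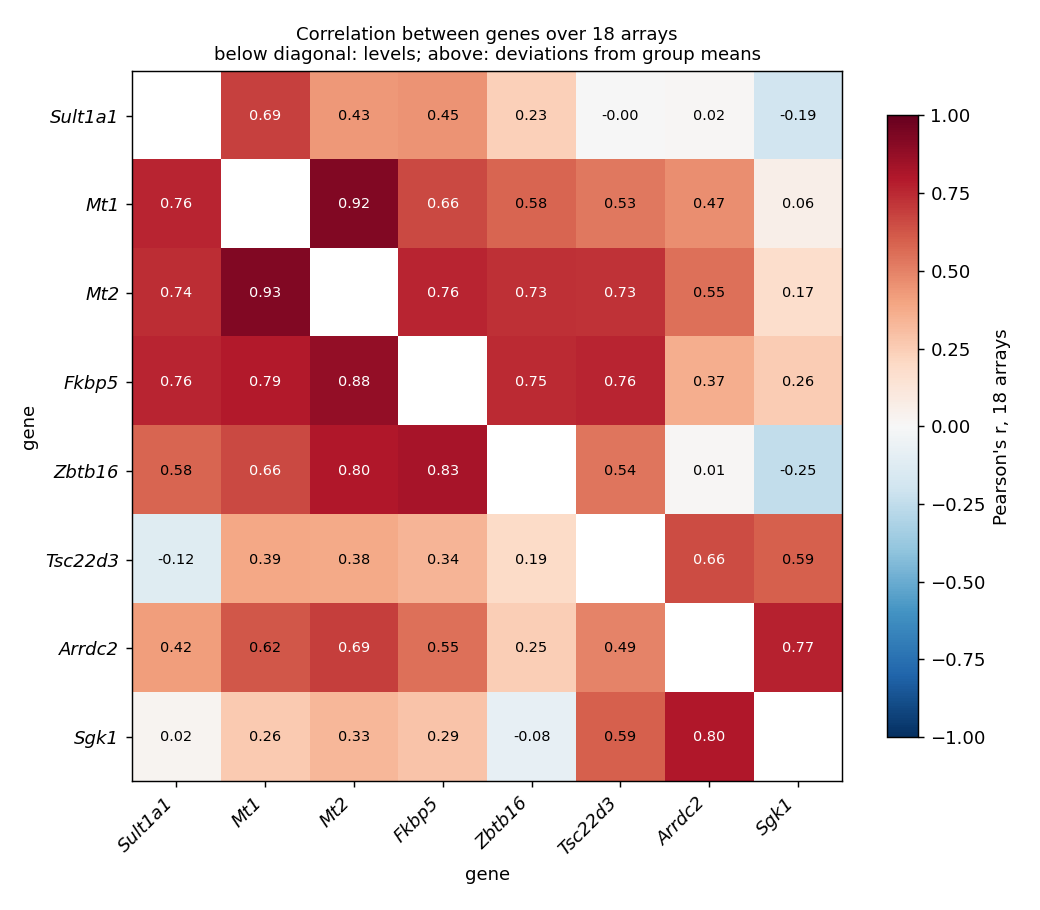
Pearson's r between the 8 genes over 18 arrays, from levels below the diagonal and from deviations from group means above it. Mt1, Mt2, Fkbp5 and Zbtb16 form a block of values from 0.66 to 0.93 below the diagonal, and Arrdc2 and Sgk1 stand out at 0.80.

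**Figure D4:**
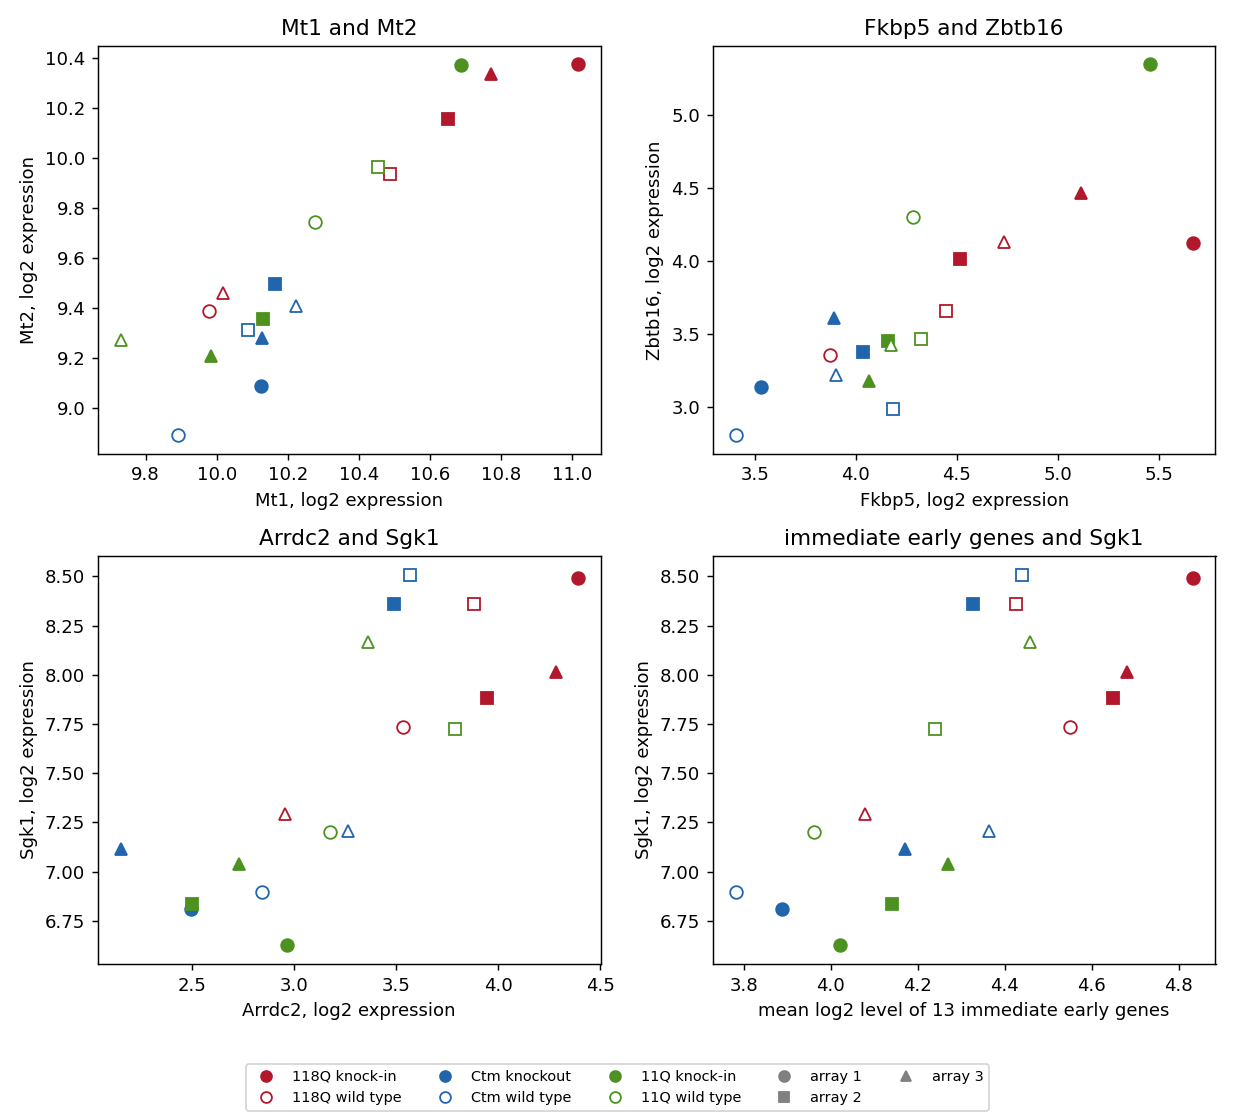
Log2 level of 1 gene against another on 18 arrays, and Sgk1 against the mean of 13 immediate early genes, with mutants filled, wild types open and colours for lines. Mt1 with Mt2 follows 1 line across all groups, 11Q knock-in array 1 lies with the 118Q knock-ins for Mt1, Mt2 and Fkbp5 and lowest for Sgk1.

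Single arrays stood high for many of the genes. 118Q knock-in array 1 was among the 5 highest of 18 arrays for 8 of 8 genes, 118Q knock-in array 3 for 6 and array 2 for 5. 11Q knock-in array 1 was among the 5 highest for 5 genes, yet was the lowest of 18 for Sgk1 at 6.63, and 118Q wild-type array 2 was for 4. Leaving out each array in turn gave 13 to 18 pairs past the threshold by Pearson's r. Within 1 line alone, with 6 arrays, 1 pair passed in the 118Q line, 1 in the Ctm line and 0 in the 11Q line.

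Probe sets of the same gene did not all follow each other. For Tsc22d3, 1420772_a_at had r = 0.726 with 1425281_a_at and 0.582 with 1425557_x_at, and for Zbtb16, 1439163_at had r = 0.857 with 1419874_x_at. Fkbp5 1416125_at and 1448231_at had r = 0.490, and the dimmest probe sets of Fkbp5, Tsc22d3 and Zbtb16 lay between -0.319 and 0.138 with the others of their gene. The dim Mt1 probe set had r = 0.855 with Arrdc2 and 0.753 with Sgk1, and 0.571 with the bright Mt1 probe set. The difference between these correlations was not tested.

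Other measures of the arrays moved with the genes, and their part in the results was not tested. In the 118Q line the mean of 9 microglia markers spanned 4.37 to 4.73 in knock-in and 3.86 to 4.18 in wild-type arrays, and 2 of the 9 rose by limma. The mean of 7 Purkinje cell markers spanned 8.93 to 9.67 in knock-in and 9.84 to 9.97 in wild-type arrays, and 3 of the 7 fell by limma. Of 13 endothelial cell and pericyte markers 1 fell by limma, with means of 4.37 to 4.82 in knock-in and 4.83 to 5.14 in wild-type arrays, where each knock-in array lay below each wild type. Over all probe sets in the 118Q line 0.558% passed in either direction. Of single probe sets 10.4% lay above all wild types and 5.88% below. The 12 astrocyte and Bergmann glia markers overlapped, at 7.62 to 7.78 in knock-in and 7.54 to 7.85 in wild-type arrays, and 0 passed by limma. The mean of 8 meninges and fibroblast markers was 4.68 to 4.75 in knock-in and 4.87 to 5.12 in wild-type arrays, without overlap. Of these 8 markers 0 passed by limma. The 3' minus 5' difference of the control genes, a measure of RNA quality, was 0.415 to 0.473 in 118Q knock-in and 0.496 to 0.613 in 118Q wild-type arrays. With it as a covariate 0 of the 16 probe sets passed, as without it. Since its values did not overlap between the 118Q groups, RNA quality and genotype cannot be told apart there.

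Over the 18 arrays, 96 relations between the 8 genes and 12 such measures were computed, of which 10 passed by Pearson's r, 7 by Spearman's rho and 4 by both coefficients, by permutation tests adjusted over the 96. The mean of the immediate early genes, which neurons switch on with activity, went with Arrdc2 at r = 0.784 and rho = 0.798 (adjusted permutation p = 0.00736 and 0.012) and with Sgk1 at r = 0.776 and rho = 0.785 (adjusted permutation p = 0.00736 and 0.012). These r were 0.747 and 0.722 without the 2 arrays farthest from the median of that mean, and 0.583 and 0.784 after group means were subtracted. Mt1 was lower where the endothelial list was higher, with r = -0.680 and rho = -0.703 (adjusted permutation p = 0.035 and 0.0382), and -0.376 after group means were subtracted. Sgk1 was lower where granule cell markers were higher, with r = -0.642 and rho = -0.703 (adjusted permutation p = 0.0475 and 0.0382). The microglia list passed by Pearson's r alone with Mt1 (r = 0.744, rho = 0.453), Mt2 (r = 0.655, rho = 0.455) and Arrdc2 (r = 0.743, rho = 0.626), and without the 2 arrays farthest from its median these r were 0.449, 0.390 and 0.546.

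The other 3 that passed by Pearson's r alone were the endothelial list with Mt2 (r = -0.631, rho = -0.540), the Purkinje cell list with Mt2 (r = -0.606, rho = -0.496) and the clock list with Zbtb16 (r = 0.707, rho = 0.641). Without the 2 arrays farthest from the median of the list these r were -0.462, -0.502 and 0.386. With group means subtracted from all 18 arrays they were -0.539, 0.208 and 0.719, so the Purkinje cell relation with Mt2 changed sign. By Spearman's rho alone, 3 passed: the Purkinje cell list with Sult1a1 (r = -0.471, rho = -0.678), the granule cell list with Arrdc2 (r = -0.610, rho = -0.664) and the clock list with Mt1 (r = 0.487, rho = 0.672), at adjusted permutation p of 0.0445 to 0.049. With group means subtracted, r was 0.649, -0.243 and 0.596 for these, so the Purkinje cell relation with Sult1a1 also changed sign. None of these group-centred values was tested. Choroid plexus markers passed with none of the 8 genes. The meninges and fibroblast list passed with none either, at r = -0.253 with Mt1 and -0.082 with Mt2. After group means were subtracted these r were -0.774 and -0.799, which was not tested. Within the 118Q, Ctm and 11Q lines they were -0.913, -0.788 and -0.902 for Mt1 and -0.961, -0.721 and -0.798 for Mt2.

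Genes of the wider glucocorticoid programme were taken from lists chosen for known roles, with earlier results of these data known. Counts over these lists describe the arrays and are no independent evidence of a wider programme. Of 27 other glucocorticoid-induced genes measured, 25 averaged higher in 118Q knock-in mice and 6 lay above all wild types, with a median of 0.25 against 0.034 over all probe sets. By limma 0 passed and 8 had an unadjusted p under 0.05. Over all probe sets in that line 57.4% averaged higher, 10.4% lay above all wild types and 14.1% had an unadjusted p under 0.05. The medians were -0.10 in the Ctm line and -0.082 in the 11Q line, where 10 and 8 of 27 were positive. Sdc4, a cell-surface proteoglycan, was 0.47 higher in 118Q knock-ins (SE 0.12, adjusted p = 0.081 by limma), at 7.92 ± 0.072 against 7.46 ± 0.086 (SD, n = 3). Map3k6, a stress kinase, differed by 0.69 (SE 0.21, adjusted p = 0.135 by limma) and Rhou, a small GTPase, by 0.38 (SE 0.14, adjusted p = 0.211 by limma). Per1, a clock gene that glucocorticoids induce directly, averaged 6.78 ± 0.049 in 118Q knock-in and 6.06 ± 0.60 in 118Q wild-type arrays (SD, n = 3), a change of 0.72 (SE 0.29, adjusted p = 0.260 by limma) with no overlap. It differed by 0.11 in the Ctm line and -0.065 in the 11Q line.

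The receptor and its machinery leaned the other way in the 118Q line, where 8 of 10 measured genes averaged lower, with a median of -0.21. By limma 0 passed and 4 had an unadjusted p under 0.05 (14.1% of all probe sets). Hsp90aa1, the chaperone that holds the receptor ready for hormone, averaged 9.23 ± 0.29 in 118Q knock-in and 9.78 ± 0.18 in 118Q wild-type arrays (SD, n = 3), a change of -0.54 (SE 0.13, adjusted p = 0.0686 by limma) with no overlap. Hspa8, a chaperone of the same complex, differed by -0.43 (SE 0.13, adjusted p = 0.138 by limma) and the coactivator Ncoa2 by -0.42 (SE 0.14, adjusted p = 0.158 by limma). The receptors themselves did not pass by limma, with Nr3c1 differing by -0.12 (SE 0.13) and the mineralocorticoid receptor Nr3c2 by -0.33 (SE 0.19) in the 118Q line, by 0.11 and -0.25 in the Ctm line, and by -0.018 and -0.034 in the 11Q line.

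Among 21 zinc and metal handling genes there was no shared direction in the 118Q line, with 11 positive and a median of 0.0036, against 0.034 over all probe sets, and 0 passed by limma (2 at an unadjusted p under 0.05, against 14.1% of all probe sets). The copper exporter Atp7a differed by -0.58 (SE 0.17, adjusted p = 0.124 by limma) and the zinc importer Slc39a10 by -0.29 (SE 0.12, adjusted p = 0.298 by limma). Mt3, the brain metallothionein beside Mt1 and Mt2 on chromosome 8, differed by 0.36 (SE 0.20, adjusted p = 0.455 by limma), and the metal sensor Mtf1 by -0.12 (SE 0.11, adjusted p = 0.697 by limma). In the Ctm and 11Q lines 5 and 4 of the 21 were positive, with medians of -0.11 and -0.055, and 1 and 5 had an unadjusted p under 0.05, against 11.0% and 5.24% of all probe sets.

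Of 13 immediate early genes 11 averaged higher in 118Q knock-in mice and 4 lay above all wild types, with a median of 0.33, and 0 passed by limma (3 at an unadjusted p under 0.05). The shares over all probe sets were 57.4% higher, 10.4% above all wild types and 14.1% with such a p. Junb averaged 3.75 ± 0.42 in 118Q knock-in and 3.03 ± 0.34 in 118Q wild-type arrays (SD, n = 3), a change of 0.72 (SE 0.20, adjusted p = 0.107 by limma). In the 11Q line Junb differed by 0.70 (SE 0.20, adjusted p = 0.909 by limma), also with no overlap. Ier2 differed by 0.44 and Npas4, a factor of neuronal activity, by 1.12 in the 118Q line. The median of the list was -0.12 in the Ctm line and -0.098 in the 11Q line. Of 15 clock genes 11 averaged higher in 118Q knock-in mice, with a median of 0.19 and 0 past the test by limma (1 at an unadjusted p under 0.05, against 14.1% of all probe sets). Tef and Ciart differed by 0.37 and 0.47 there, and Arntl, which peaks opposite to them in many mouse tissues, by -0.40. The clock medians were -0.019 in the Ctm line and 0.060 in the 11Q line.

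**Figure D5:**
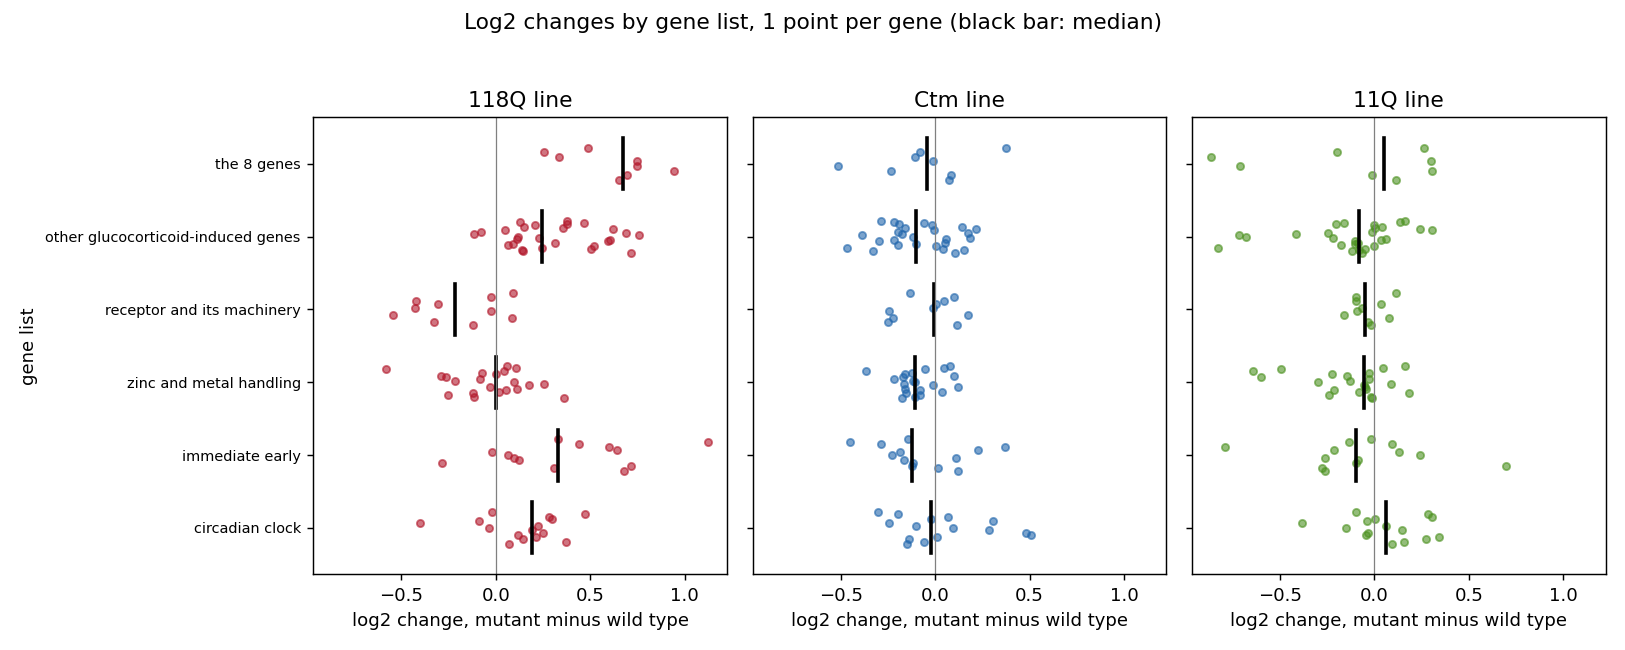
Log2 change, mutant minus wild type, of every measured gene of 6 lists in the 118Q, Ctm and 11Q lines, 1 point per gene on its brightest probe set, with a black bar at the median. In the 118Q line the medians are 0.67 for the 8 genes, 0.25 for other glucocorticoid-induced genes and -0.21 for the receptor and its machinery.

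The genes most like Mt1 and Mt2 in pattern, by Pearson's r with the mean of both over 18 values with group means subtracted, were Ramp2 (0.896), Pnpla2 (0.870), Etnppl (0.861), Hepacam (0.854) and Igfbp5 (0.842). For the mean of the other 6 genes they were Mfsd2a (0.897), Adipor2 (0.844), Klf15 (0.838), Gjb6 (0.819) and Lrrc8a (0.795). They were ranked among 8925 genes with brighter probe sets, predicted loci left out, so high values are selected and carry no test. Pnpla2 and Klf15 are also in the list of glucocorticoid-induced genes, and Hepacam is in the list of astrocyte and Bergmann glia markers. In the 118Q line Etnppl, a lyase of phosphoethanolamine, differed by 0.69, Klf15, a zinc finger factor, by 0.50, Ramp2, a partner of calcitonin-family receptors, by 0.44 and Mfsd2a, a transporter of lipids, by 0.44, and none passed by limma.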

How the data were processed

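Log2 expression values per probe set, deposited by the authors, were used as given. RMA summarised and normalised them, per the submitters' processing notes, where no version is named, and the RNA had an integrity number above 5.0, per the labels. The zero point of the scale is not stated, so changes of dim probe sets may be understated. Genes were named from the platform's probe table. Of 45101 probe sets, 34945 with exactly 1 symbol were tested, without 64 controls and 10092 with several symbols or none, and no dim probe set was left out.

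Each group was given 1 mean over all 18 arrays with limma 3.58.1 in R 4.3.3 (lmFit and eBayes, 12 residual and 5.88 prior degrees of freedom). Two-sided tests were adjusted by Benjamini-Hochberg over 34945 probe sets at 0.05. Tested on simulated data for the 118Q comparison over 34945 probe sets, the fit recovered 90% of log2 changes of 1 and 99% of changes of 2, with 8 false calls. The changes were planted in 200 random probe sets with noise drawn independently, and none was smaller than 1. The 8 genes changed by 0.26 to 0.94 in that line, so these shares do not tell how well their changes could be found. The number of arrays limits the precision. The labels name the replicates as separate samples and not more, so p-values measure the spread between these arrays.

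Replicate numbers were checked for pairing: deviations of same-numbered arrays from their group means correlated at -0.076, -0.089 and 0.0082 in the 118Q line, 0.039, 0.22 and -0.10 in the Ctm line, and 0.16, -0.12 and 0.039 in the 11Q line, so the numbers were not taken as pairs. That check covers all probe sets and does not speak for single genes. Sult1a1, Fkbp5, Sgk1, Tsc22d3 and Zbtb16 had the same order by number in knockout and wild-type arrays of the Ctm line. Sgk1 and Zbtb16 also did so in the 11Q line, and none of these genes did in the 118Q line. What the numbers stand for is not given, and a replicate block was run as an alternative. Permutation tests used numpy 2.4.6 with 100000 resamples, or all 720 orders within a line, and scipy 1.17.1 for ranks. Fewer resamples were drawn for the pair counts with an array left out. Cell type lists were averaged per array over brightest probe sets. Of the listed pathway genes 86 were measured.

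The 8 genes, the lists and the alternatives were chosen with earlier results of these data known. Named genes are all probe sets of the 8, from each list the 3 with the smallest p in the 118Q line (none passed), always Nr3c1, Nr3c2, Mt3, Mtf1 and Per1, and the 5 genes most like each of 2 means in pattern. The alternatives were 1 probe set per gene, averaging the probe sets of a gene, leaving out the dimmer 50% of probe sets, trend and robust eBayes, array weights, renewed quantile normalisation, an RNA quality covariate, choroid plexus markers as a covariate, a replicate block, each line fitted alone, 6 wild types as control and leaving out each array.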

Additional observations from a re-analysis of the deposited data

Results flagged for a closer look

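Arrdc2 and the dim Mt1 probe set drew attention because every 118Q knock-in array lay above its wild types and every 11Q knock-in array lay below its own. Arrdc2 (1428352_at) was at 0.75 in the 118Q line and -0.71 in the 11Q line, a difference of 1.46 (SE 0.41) that did not pass over all probe sets (adjusted p = 0.330 by limma). Mt1 1451612_at was at 0.76 in the 118Q line and -0.78 in the 11Q line, a difference of 1.54 (SE 0.40) that did not pass either (adjusted p = 0.315 by limma). Over the alternatives tried, the smallest adjusted p of any of the 16 probe sets for 118Q minus 11Q lay between 0.130 and 0.707 by limma. The bright Mt1 probe set was at 0.65 and 0.11 in these lines. Groups of 3 arrays are too small to test single arrays as outliers.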

How the results depend on the processing

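Over 136 alternative values of the 8 genes in the 118Q line, each of which was positive, the log2 change lay between 0.017 and 1.23. Many of these values repeat the reported change by design, so their count is no measure of robustness. Using 1 probe set per gene, leaving out dim probe sets, and trend and robust eBayes cannot alter the log2 change of a brightest probe set. Neither can fitting the line alone or the replicate block. The call changed for Mt1 with wild types of the 118Q and 11Q lines together (6 arrays) as control, at 0.66 (adjusted p = 0.0286 by limma), where 3 of 16 probe sets passed, and the smallest adjusted p of the 16 over the 17 alternatives lay between 0.0286 and 0.345. Sgk1 was at 0.017 with array weights and 0.073 with the RNA quality covariate, Sult1a1 at 0.57 with array weights, and Fkbp5 and Zbtb16 at 0.46 and 0.22 when a gene's probe sets were averaged. No probe set of the 8 genes passed in the Ctm or 11Q line or in a difference between lines under any alternative run, with smallest adjusted p of 0.0546 to 0.893 and 0.635 to 1.00 in the lines by limma. The replicate block changed none of these counts from 0.

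Directions in the Ctm and 11Q lines depended on the setting, and the cause was not tested. In the Ctm line averaging probe sets gave -0.0072 for Mt1 and 0.034 for Fkbp5, and the 6 wild types as control gave -0.019 for Mt1, -0.34 for Mt2, 0.16 for Tsc22d3, -0.35 for Zbtb16 and -0.34 for the median of the 8. In the 11Q line Mt1 was at -0.33 with its probe sets averaged, -0.091 with array weights and -0.039 with the choroid plexus covariate, and Zbtb16 at -0.18 with array weights. Leaving out each array in turn gave ranges across 0 in the Ctm line of -0.017 to 0.15 for Mt1, -0.073 to 0.19 for Mt2, -0.36 to 0.0088 for Sult1a1, -0.22 to 0.17 for Fkbp5, -0.57 to 0.38 for Sgk1 and -0.21 to 0.045 for Tsc22d3. In the 11Q line they were -0.099 to 0.26 for Mt1, -0.38 to 0.20 for Mt2, -0.0089 to 0.55 for Sult1a1, -0.15 to 0.55 for Fkbp5 and -0.42 to 0.67 for Zbtb16. The median of the 8 genes ranged from -0.21 to 0.11 in the Ctm line and from -0.39 to 0.23 in the 11Q line.

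Of the 86 pathway genes, 0 passed in the 118Q line as reported. There 1 passed with 1 probe set per gene, 1 with probe sets averaged, 2 when the dimmer 50% were left out, 2 with trend and robust eBayes, 5 with array weights, 1 with renewed quantile normalisation and 6 with the 6 wild types as control, and 0 to 3 with an array left out. In the Ctm line 1 passed with array weights and 0 to 1 with an array left out. With the 6 wild types as control 14 passed there, where 9.89% of all probe sets passed. Shares over all probe sets are not given here for most other settings, so the counts are no result about these genes. The 15 pairs past the threshold numbered 1 in the 118Q line alone, 1 in the Ctm line alone and 0 in the 11Q line alone, where 6 arrays limit the smallest p, and 13 to 18 with an array left out. Over all probe sets the 118Q calls numbered 195 as reported, 92 with the replicate block, 1 with the RNA quality covariate and 2194 with the 6 wild types as control. Of the 16 probe sets, 10 stayed without the dimmer 50%.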
